A study of Mus musculus with 16 samples.

Results

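The RNA levels of 10 marker genes of epithelial, mesenchymal and smooth muscle cells were followed in mouse embryonic stem cells (ESCs) that had lost Dnmt1 alone or together with Dicer. The genes were named by their known roles, by a rule that used no measured value, though with earlier results of these data known. They are Cdh1 and Epcam on the epithelial side, Cdh2, Vim, Fn1 and Thy1 on the mesenchymal side, Acta2 and Tagln of smooth muscle, and Lox and Sparc of the extracellular matrix. All 10 were among the 26127 genes of the deposited table, and all 10 passed the filter on low values (above 1 RPM, reads per M reads of the library, in at least 4 libraries), as did 12892 genes in total. The 16 libraries were made from total RNA after removal of ribosomal RNA, and their labels name E14 as the background. The 8 wildtype (WT) libraries were labelled as controls for both genes, the 4 Dnmt1 KO libraries as Dnmt1-/- with a Dicer control, and the 4 double knockout (DKO) libraries as Dicer/Dnmt1 -/-. WT libraries carry the numbers 1 to 4 and knockout libraries the numbers 1 and 2, each with a letter A or B. Neither number nor letter is explained in the labels, so the p-values given below measure the spread between these libraries, which may in part be technical.

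In the methods of the study, the cells carried loxP sites in both copies of Dnmt1, which were recombined by a Cre enzyme that is switched on with tamoxifen. The Dicer mutants were derived from these cells with CRISPR/Cas9 as colonies grown from single cells, in both a conditional and a constitutive form, and the labels do not say which form was sequenced or how long after deletion. The parent line is described there as C57BL/6, a different background from the one in the labels. Cells were grown in serum and LIF with or without feeder cells, and for these libraries the use of feeders is not stated.

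Epithelial cells hold on to each other through E-cadherin (Cdh1) and EpCAM (Epcam), and ESCs in colonies share this trait. In an epithelial-mesenchymal transition (EMT) the transcription factors of the Snail, Zeb and Twist families repress Cdh1, and cells take up N-cadherin (Cdh2), the intermediate filament vimentin (Vim) and a fibronectin (Fn1) matrix. Smooth muscle alpha-actin (Acta2) and transgelin (Tagln), which bind into or along the contractile actin filaments, are classic targets of the serum response factor SRF and its partners of the myocardin family. Lox encodes lysyl oxidase, which cross-links collagen and elastin. Sparc encodes a collagen-binding matrix protein, and Thy1 a surface glycoprotein of fibroblasts, neurons and T cells. DNMT1 maintains DNA methylation when cells divide, and DICER makes microRNAs and other small RNAs.

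The letters upstream of 3 of these genes are shown because Cdh1 is the classic gene repressed by EMT factors and because Acta2 and Tagln, though often named as a pair, differed in direction here. Each line holds the 250 bases before the start of the longest annotated transcript in the mouse build NCBIM37. The first is on the plus strand of chromosome 8 at chr8:109127001-109127250, the second on the minus strand at chr19:34329827-34330076 and the third on the minus strand at chr9:45744142-45744391. Capitals mark the E-box CACCTG on either strand in Cdh1, and in Acta2 and Tagln the CArG box, the SRF motif with a core of A and T between CC and GG, in Acta2 with 1 G or C in that core.
Cdh1: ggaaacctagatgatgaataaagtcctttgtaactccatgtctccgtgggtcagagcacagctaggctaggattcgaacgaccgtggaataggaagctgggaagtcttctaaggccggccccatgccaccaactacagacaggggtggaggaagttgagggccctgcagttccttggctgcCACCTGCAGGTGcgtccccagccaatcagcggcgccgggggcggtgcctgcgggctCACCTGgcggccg
Acta2: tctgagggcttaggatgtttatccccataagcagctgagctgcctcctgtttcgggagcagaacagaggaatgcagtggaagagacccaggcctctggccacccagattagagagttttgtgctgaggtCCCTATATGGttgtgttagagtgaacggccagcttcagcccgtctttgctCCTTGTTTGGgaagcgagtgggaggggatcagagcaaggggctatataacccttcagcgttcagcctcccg
Tagln: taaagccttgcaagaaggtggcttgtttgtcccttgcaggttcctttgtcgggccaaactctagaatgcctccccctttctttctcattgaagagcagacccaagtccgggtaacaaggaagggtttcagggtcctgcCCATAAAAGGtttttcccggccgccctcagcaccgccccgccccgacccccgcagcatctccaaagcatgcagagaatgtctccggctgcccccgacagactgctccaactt

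Cdh1 held 3 matches of the E-box and Epcam 2, whereas 16.9% of 21856 promoters of this length held at least 1. Tagln held 1 exact CArG box, which 1.32% of the promoters held, at 112 to 103 bases before the start. Acta2 held 2 of the form with 1 G or C in the core, at 121 to 112 and at 71 to 62 bases before the start, and 6.91% of the promoters held that form. Neither CArG form was in the windows of Cdh1, Epcam, Vim, Fn1, Sparc or Thy1, and the windows of Lox and Cdh2 were not analysed here. Since DNMT1 acts on the dinucleotide CpG, CpGs were also counted: 24 in Fn1, 13 in Cdh1, 12 in Vim, 10 in Tagln, 9 in Thy1, 8 in Epcam, 6 in Acta2 and 4 in Sparc, beside a median of 9 over all promoters. Of the genes called below, Vim and Tagln thus lay above that median, and Acta2 and Sparc under it. DNA methylation was not measured in these libraries.

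Dnmt1 and Dicer1 were compared first, as a check of the labels. The Dnmt1 level was 4.17 to 4.63 log2 RPM in Dnmt1 KO and 4.49 to 4.64 in DKO, against 7.40 to 7.66 in the 6 WT libraries with numbers 1 to 3. Both libraries of WT number 4 lay between, at 5.69 and 5.55. Dicer1 was at 3.68 to 4.06 log2 RPM in DKO, 4.56 to 5.68 in WT, where number 4 was again lowest, and 5.28 to 5.68 in Dnmt1 KO. For this reason the calls of the 10 genes are also given without WT number 4 wherever they change. Counts of the gene lists also shifted without it, and are given so only for some lists. The libraries held 31.5 to 52.5 M reads, so that 3 reads correspond to 0.0571 to 0.0954 RPM; the lowest count of any of the 10 genes in any library was 59 reads, for Thy1. The ESC markers Nanog and Sox2 were at 8.55 ± 0.17 and 7.88 ± 0.17 log2 RPM in WT (SD, n = 8). Nanog was at 7.91 ± 0.30 in Dnmt1 KO and 8.64 ± 0.04 in DKO (n = 4 each), and Sox2 at means of 7.21 and 7.78. The tests of both genes are given with the ESC markers below.

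Loss of Dnmt1 was accompanied by higher RNA of 5 of the 10 genes (Cdh2, Vim, Acta2, Lox and Sparc) and lower RNA of 1 (Tagln). The same call was made for each of these 6 genes in DKO. Cdh1, Epcam, Fn1 and Thy1 did not pass the test in either knockout. Because 41.0% of all tested genes were called in Dnmt1 KO (23.5% higher and 17.5% lower) and 61.9% in DKO (31.9% higher and 30.1% lower), 6 called genes of 10 is a share near the background of the second comparison. The median log2 fold change of the 10 genes was 0.42 in Dnmt1 KO and 0.61 in DKO, beside 0.04 and 0.02 over all tested genes. The libraries of a knockout lay entirely above WT for 5 genes in Dnmt1 KO and for 4 in DKO, which 14.8% and 22.6% of all tested genes did. Both comparisons use the same WT libraries and are not independent. All tests are limma fits over the 12892 genes, with p-values adjusted by Benjamini-Hochberg. In bulk RNA, a change in the number of cells of a type and a change of RNA per cell cannot be told apart.

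**Figure D1:**
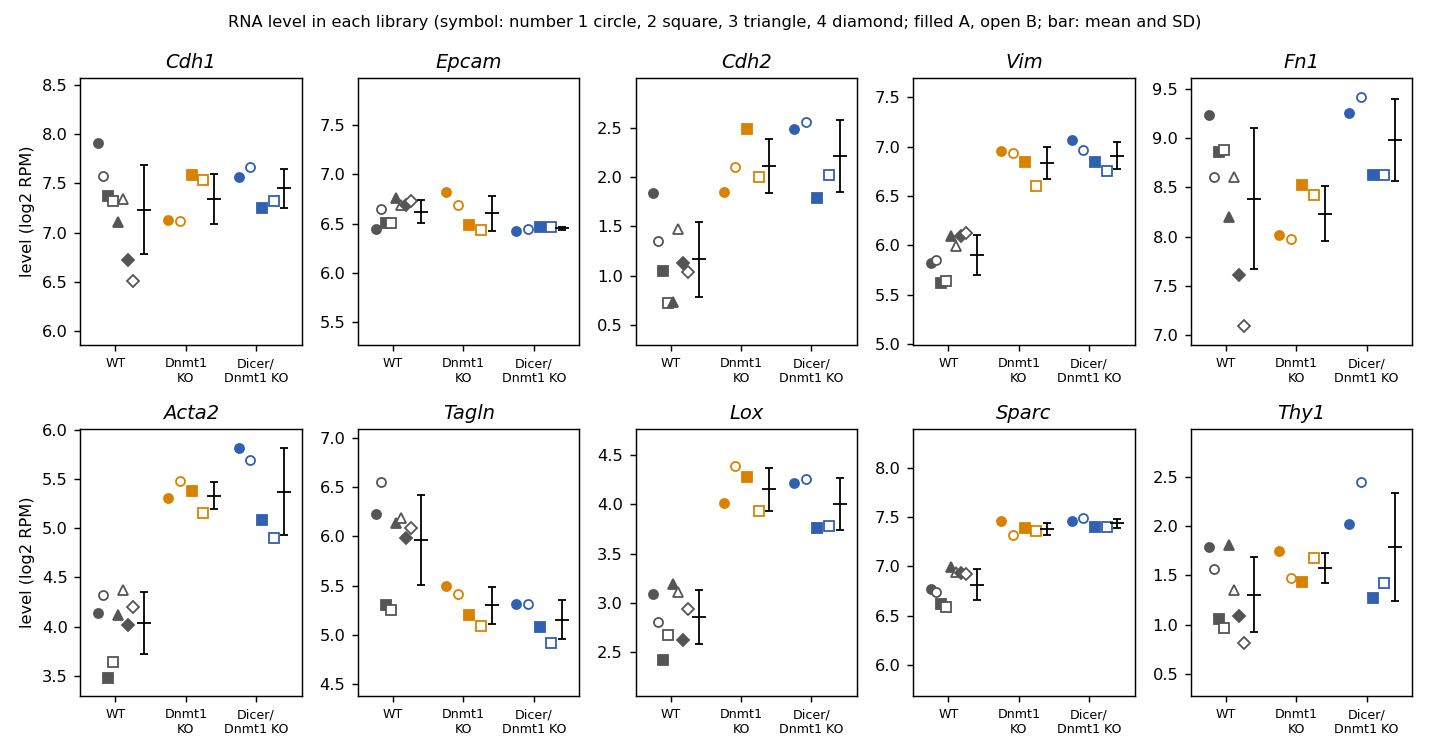
RNA level (log2 RPM, vertical axis) of each of the 10 genes in each library of WT (grey, n = 8), Dnmt1 KO (orange, n = 4) and DKO (Dicer/Dnmt1 KO, blue, n = 4), with every panel spanning the same range of log2 units; black bars are mean and SD. All knockout libraries lie above all WT libraries for Vim, Acta2, Lox and Sparc, Tagln is low in the knockouts and in WT number 2, and WT number 4 is lowest for Cdh1 and Fn1.

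Among the epithelial genes, Cdh1 (chromosome 8, 109127251 to 109194146, 16 exons) was at 6.51 to 7.91 log2 RPM in WT, with a median of 7.33. Its 4 Dnmt1 KO libraries were at 7.13, 7.12, 7.59 and 7.53, and its 4 DKO libraries at 7.56, 7.67, 7.25 and 7.32. All 8 knockout libraries lay within the WT range. The log2 fold change was 0.11 (SE 0.20, adjusted p = 0.691) for Dnmt1 KO and 0.22 (SE 0.20, adjusted p = 0.348) for DKO. WT libraries themselves differed, with means of 7.75, 7.35, 7.22 and 6.62 for numbers 1 to 4. Against WT numbers 3 and 4 alone Cdh1 was higher in both knockouts (0.42, adjusted p = 0.0436, and 0.53, adjusted p = 0.00963), whereas against numbers 1 and 2 alone the difference was -0.21 (adjusted p = 0.248) and -0.10 (adjusted p = 0.575).

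Epcam (chromosome 17, 88035319 to 88050446, 10 exons) was the less variable of the epithelial pair. WT libraries were at 6.45 to 6.76 log2 RPM, with a median of 6.67. The Dnmt1 KO libraries were at 6.82, 6.69, 6.48 and 6.43 and the DKO libraries at 6.43, 6.44, 6.47 and 6.47, so that the groups overlapped. The log2 fold change was -0.02 (SE 0.08, adjusted p = 0.878) for Dnmt1 KO and -0.17 (SE 0.08, adjusted p = 0.0699) for DKO. The latter passed against WT numbers 3 and 4 alone (-0.26, adjusted p = 0.00847) and with each library centred on its median (-0.24, adjusted p = 0.0149).

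N-cadherin, which replaces E-cadherin in many mesenchymal and neural cells, was the lowest of the 10 per kilobase in all 3 groups. Cdh2 was at 0.72 to 1.84 log2 RPM in WT with a median of 1.09, from 69 reads upwards. Dnmt1 KO libraries were at 1.84, 2.10, 2.49 and 2.00, and DKO libraries at 2.48, 2.56, 1.79 and 2.02. Dnmt1 KO lay above WT by a narrow margin, and DKO 2A overlapped with WT 1A. Cdh2 rose by a log2 fold change of 0.94 (SE 0.20, 1.92-fold, adjusted p = 0.00118) for Dnmt1 KO and 1.05 (SE 0.20, 2.07-fold, adjusted p = 0.000255) for DKO. With letter A libraries alone neither call held (adjusted p = 0.0780 and 0.0539).

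Vim (chromosome 2, 13495554 to 13504453, 9 exons) was at 5.62 to 6.13 log2 RPM in WT, with a median of 5.92. The Dnmt1 KO libraries were at 6.96, 6.94, 6.85 and 6.60, and the DKO libraries at 7.07, 6.97, 6.85 and 6.75. Every knockout library was above every WT library. Vim rose 1.91-fold in Dnmt1 KO (log2 fold change 0.93, SE 0.11, adjusted p = 2.33e-06) and 2.01-fold in DKO (1.00, SE 0.11, adjusted p = 4.11e-07).

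Fn1 (chromosome 1, 71632094 to 71699774, 46 exons), the matrix glycoprotein that integrins bind, was the most variable of the 10 in WT. Its WT libraries ran from 7.09 to 9.23 log2 RPM with a median of 8.60, and WT number 4 was lowest at 7.62 and 7.09. The Dnmt1 KO libraries were at 8.01, 7.97, 8.52 and 8.43, and the DKO libraries at 9.26, 9.42, 8.63 and 8.62. Each knockout overlapped with WT, while all 4 DKO libraries lay above all 4 Dnmt1 KO libraries. The log2 fold change against WT was -0.15 (SE 0.31, adjusted p = 0.723) for Dnmt1 KO and 0.60 (SE 0.31, adjusted p = 0.0974) for DKO. Without WT number 4, Fn1 was lower in Dnmt1 KO (-0.49, SE 0.19, adjusted p = 0.0390) and differed by 0.25 (SE 0.19, adjusted p = 0.249) in DKO. The DKO value depended on the WT libraries, with 0.09 (adjusted p = 0.696) against WT numbers 1 and 2 alone and 1.10 (adjusted p = 0.00179) against numbers 3 and 4 alone. Apol7d overlaps the first part of Fn1 by 364 bp on the opposite strand and had at most 37 reads.

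Thy1 (chromosome 9, 43851467 to 43856662, 4 exons) was low throughout. WT libraries were at 0.81 to 1.81 log2 RPM with a median of 1.22, Dnmt1 KO libraries at 1.74, 1.47, 1.43 and 1.67, and DKO libraries at 2.02, 2.44, 1.27 and 1.42. The groups overlapped, with a log2 fold change of 0.27 (SE 0.22, adjusted p = 0.338) for Dnmt1 KO and 0.48 (SE 0.22, adjusted p = 0.0656) for DKO. The latter passed without any one of WT 1A, WT 3A, DKO 2A or DKO 2B, at 0.55 to 0.66 (adjusted p from 0.0228 to 0.0406), and with a trend with transcript length removed (0.64, adjusted p = 0.0259). It was 0.21 (adjusted p = 0.625) with letter A alone and 0.76 (adjusted p = 0.0766) with letter B alone.

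The smooth muscle pair went apart. Acta2 (chromosome 19, 34315580 to 34329826, minus strand, 9 exons) was at 3.48 to 4.38 log2 RPM in WT, with a median of 4.13. Dnmt1 KO libraries were at 5.31, 5.48, 5.38 and 5.15, and DKO libraries at 5.81, 5.69, 5.09 and 4.90. All 8 knockout libraries were above all 8 WT libraries. Acta2 rose 2.45-fold in Dnmt1 KO (log2 fold change 1.29, SE 0.18, adjusted p = 1.72e-05) and 2.52-fold in DKO (1.33, SE 0.18, adjusted p = 5.21e-06).

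Tagln (chromosome 9, 45737711 to 45744141, minus strand, 5 exons) was at 5.25 to 6.55 log2 RPM in WT with a median of 6.11, at 5.50, 5.41, 5.20 and 5.10 in Dnmt1 KO, and at 5.32, 5.31, 5.08 and 4.92 in DKO. The overlap with the knockouts came from WT number 2, at 5.30 and 5.25, and the other 6 WT libraries were at 5.98 or more. Tagln was 1.58-fold lower in Dnmt1 KO (log2 fold change -0.66, SE 0.19, adjusted p = 0.0106) and 1.75-fold lower in DKO (-0.81, SE 0.19, adjusted p = 0.00156). The first call did not hold against WT numbers 1 and 2 alone (-0.53, adjusted p = 0.0672), with the A and B libraries of a number averaged (adjusted p = 0.116), or with letter A (-0.56, adjusted p = 0.146) or letter B alone (-0.77, adjusted p = 0.111). The second held in all 4. Pcsk7 overlaps Tagln by 65 bp on the opposite strand and had 239 reads on average, and whether the counting used strand is not given in the sources used here.

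Within a library, Acta2 minus Tagln was -1.93 ± 0.19 log2 RPM in WT (SD, n = 8), with a range of -2.23 to -1.61. It was 0.03 ± 0.16 in Dnmt1 KO and 0.21 ± 0.26 in DKO (n = 4 each). WT number 2, in which both genes were low, held the highest WT value of this difference (WT 2B, -1.61), which still lay under every knockout library. Epcam minus Vim was 0.72 ± 0.12 in WT, -0.23 ± 0.10 in Dnmt1 KO and -0.46 ± 0.16 in DKO, so that Vim was the lower of the pair in WT and the higher in every knockout library. Cdh1 minus Cdh2 was 6.07 ± 0.40, 5.23 ± 0.23 and 5.24 ± 0.18, and here WT number 4 and Dnmt1 KO 2B overlapped. These pairs were set up after the values had been seen and were not tested.

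**Figure D2:**
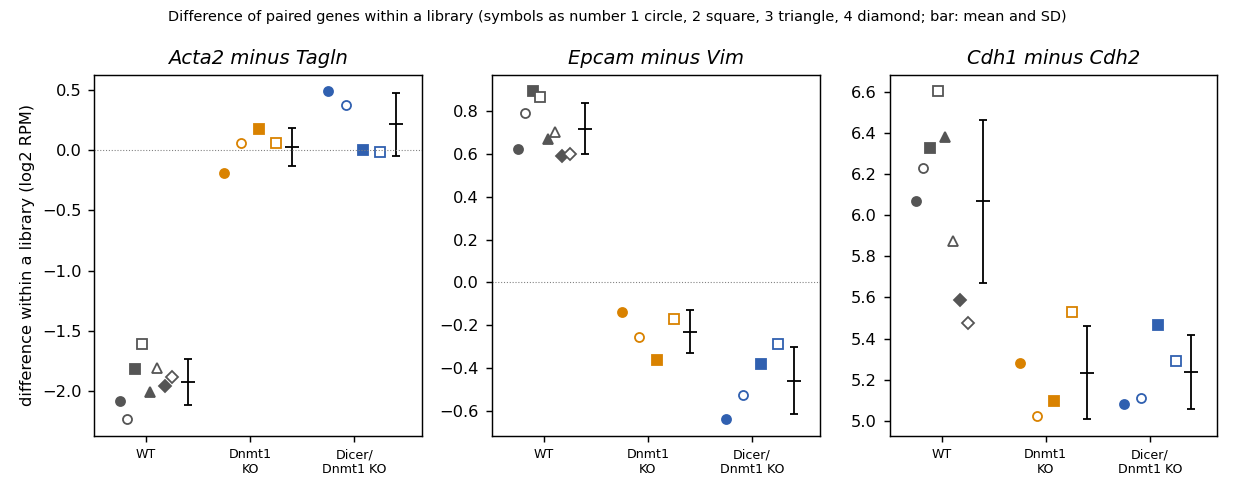
Difference in log2 RPM between paired genes within a library (vertical axis), for Acta2 minus Tagln, Epcam minus Vim and Cdh1 minus Cdh2 in WT (grey), Dnmt1 KO (orange) and DKO (Dicer/Dnmt1 KO, blue); bars are mean and SD. Acta2 minus Tagln is at or under -1.61 in the 8 WT libraries and between -0.19 and 0.49 in the 8 knockout libraries, and Epcam minus Vim changes sign.

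Of the matrix genes, Lox was at 2.43 to 3.19 log2 RPM in WT with a median of 2.88. Dnmt1 KO libraries were at 4.02, 4.39, 4.27 and 3.93, and DKO libraries at 4.21, 4.25, 3.77 and 3.78. The knockouts did not overlap with WT. Lox rose 2.46-fold in Dnmt1 KO (log2 fold change 1.30, SE 0.15, adjusted p = 2.15e-06) and 2.21-fold in DKO (1.15, SE 0.15, adjusted p = 3.77e-06).

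Sparc (chromosome 11, 55208002 to 55233582, minus strand, 10 exons) showed the smallest rise of the 5 genes and little spread. WT libraries were at 6.59 to 6.99 log2 RPM with a median of 6.85, Dnmt1 KO libraries at 7.46, 7.32, 7.38 and 7.36, and DKO libraries at 7.46, 7.49, 7.40 and 7.40. Again all knockout libraries were above WT. Sparc rose 1.48-fold in Dnmt1 KO (log2 fold change 0.57, SE 0.08, adjusted p = 2.08e-05) and 1.54-fold in DKO (0.62, SE 0.08, adjusted p = 3.24e-06).

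**Figure D3:**
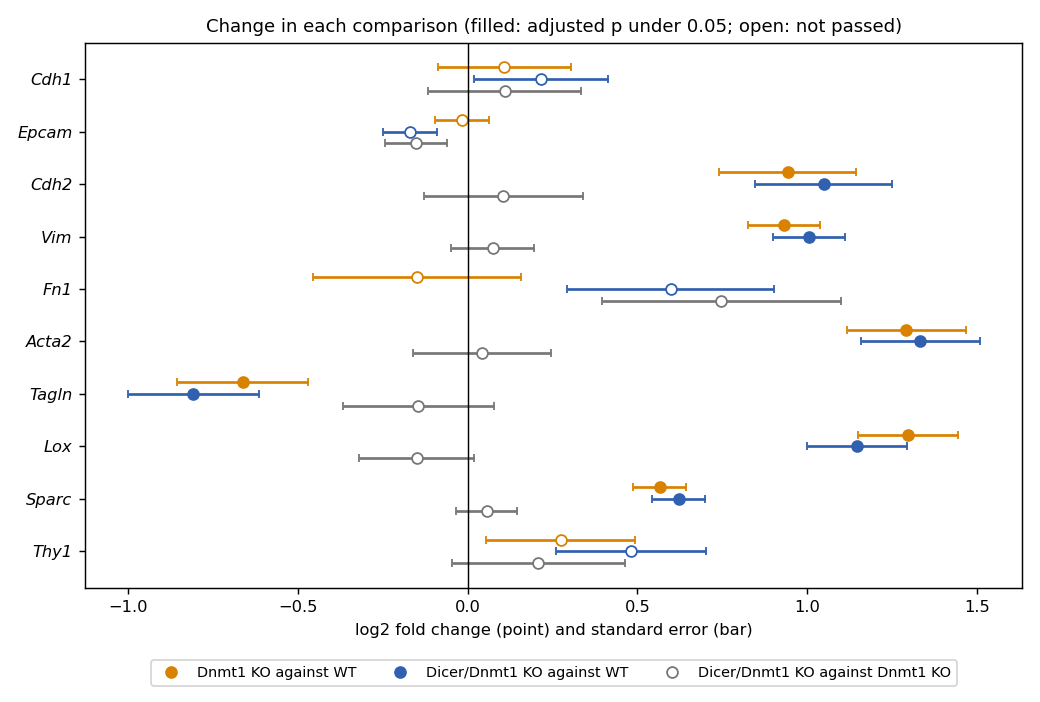
Log2 fold change (horizontal axis, point) and SE (bar) of each of the 10 genes in Dnmt1 KO against WT (orange), DKO against WT (blue) and DKO against Dnmt1 KO (grey); filled points passed an adjusted p of 0.05. Cdh2, Vim, Acta2, Lox and Sparc are higher and Tagln lower in both knockouts, and no grey point is filled.

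Whether loss of Dicer on top of Dnmt1 moved these genes further was asked by comparing the knockouts with each other. None of the 10 genes passed in limma, beside 36.3% of all tested genes (16.9% higher and 19.4% lower). Only Fn1 was under an unadjusted p of 0.05, and limma-voom on whole reads recovered from the deposited values also called 0. The log2 fold changes of the 6 genes called against WT were 0.11 (SE 0.23) for Cdh2, 0.07 (SE 0.12) for Vim, 0.04 (SE 0.20) for Acta2, -0.15 (SE 0.22) for Tagln, -0.15 (SE 0.17) for Lox and 0.06 (SE 0.09) for Sparc. Fn1 was 1.68-fold higher in DKO (0.75, SE 0.35, adjusted p = 0.106), with no overlap between the libraries, which 20.8% of all tested genes showed in this direction. The WT libraries entered this p through the shared estimate of the spread. It was 0.00379 when only the 8 knockout libraries were fitted and 0.00674 without WT number 4, so that the count of 10 genes called was then 1. Number 1 of DKO was higher than number 2 for Fn1 (9.34 against 8.62), Acta2 (5.75 against 4.99), Thy1 (2.23 against 1.34) and Cdh2 (2.52 against 1.91).

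Per kilobase of the longest transcript, the order of levels changed between groups. In WT, Sparc (5.61 ± 0.15 log2 RPM per kb), Epcam (5.59 ± 0.12), Fn1 (5.33 ± 0.71), Tagln (5.30 ± 0.46), Cdh1 (5.09 ± 0.45) and Vim (4.77 ± 0.20) led, and each overlapped with the next. Acta2 (3.21 ± 0.32), Lox (0.70 ± 0.27), Thy1 (0.51 ± 0.38) and Cdh2 (-1.11 ± 0.38) followed, and only Lox and Thy1 overlapped among these neighbours. In Dnmt1 KO, Sparc (6.18 ± 0.06) lay above all others, Vim (5.70 ± 0.16) came next and overlapped with Epcam (5.58 ± 0.18), and Acta2 (4.50 ± 0.14) overlapped with Tagln (4.64 ± 0.19). In DKO, Fn1 (5.93 ± 0.42) overlapped with both of its neighbours, Sparc (6.23 ± 0.05) and Vim (5.78 ± 0.14), and Acta2 (4.54 ± 0.45) and Tagln (4.49 ± 0.19) again overlapped.

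Over the 16 libraries, the tested gene most like Vim was Sparc (Pearson r = 0.98), the ones most like Acta2 were the collagen gene Col5a2 (0.98), Timp2 (0.97) and Lox (0.97), and the one most like Tagln was calponin 1, Cnn1 (0.96). Cdh2 was most like Axl (0.96), Sparc like H19 (0.99), Fn1 like Tle3 (0.99), Cdh1 like Scaf4 (0.99) and Epcam like Setd3 (0.92). These correlations describe the libraries, which share the 3 groups and their numbers, and were not tested.

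Of 33 tested epithelial junction, keratin and splicing genes, 5 (15.2%) were higher and 9 (27.3%) lower in Dnmt1 KO, beside 23.5% and 17.5% of all tested genes. In DKO 11 (33.3%) were higher and 8 (24.2%) lower, near the 31.9% and 30.1% of all tested genes. Without WT number 4, 4 were higher and 11 lower in Dnmt1 KO, and 10 higher and 8 lower in DKO. With all WT libraries, the median log2 fold change of the 33 genes was -0.08 and 0.05. The tight junction scaffold Tjp3 was lower in Dnmt1 KO (-1.22, SE 0.13, adjusted p = 1.5e-06) and higher in DKO than in Dnmt1 KO (0.98, SE 0.15, adjusted p = 0.00012). The polarity gene Crb3 was lower in both knockouts against WT (-1.15, SE 0.19, and -1.54, SE 0.19), while the epithelial transcription factor Elf3 (0.69, SE 0.12, and 1.34, SE 0.12) and the nectin gene Pvrl4 (0.73, SE 0.15, and 1.34, SE 0.15) were higher in both. Between the knockouts, 10 of the 33 genes (30.3%) were higher with loss of Dicer and 1 (3.0%) lower, beside 16.9% and 19.4% of all tested genes.

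The smooth muscle and SRF list, in which Acta2 and Tagln are not counted, held genes in both directions. Of 23 tested genes, 3 (13.0%) were higher and 6 (26.1%) lower in Dnmt1 KO (median -0.09), beside 23.5% and 17.5% of all tested genes. In DKO 7 (30.4%) were higher and 5 (21.7%) lower (median 0.0012), beside 31.9% and 30.1% of all tested genes. Cnn1, a contractile actin-binding protein, was lower by -0.93 (SE 0.21) and -1.03 (SE 0.21) on the log2 scale, and the muscle intermediate filament Des by -0.94 (SE 0.16) and -1.82 (SE 0.16). The gamma smooth muscle actin Actg2 was higher in Dnmt1 KO (1.96, SE 0.38), from 7 to 44 reads in WT and 50 to 101 in Dnmt1 KO. Srf itself was at 4.43, 4.42 and 4.43 log2 RPM in WT, Dnmt1 KO and DKO. Its cofactor Mkl1 did not pass in Dnmt1 KO (0.54, SE 0.24, adjusted p = 0.0778) and was higher in DKO (1.11, SE 0.24, adjusted p = 0.000708), and Mkl2 was higher in DKO (1.50, SE 0.19, adjusted p = 3.1e-06). Myocd, the cofactor of muscle, had at most 7 reads in any library and was not tested.

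Among the EMT transcription factors, 7 of 14 were expressed enough to test. Of these, 4 (57.1%) were higher in Dnmt1 KO and 5 (71.4%) in DKO, beside 23.5% and 31.9% of all tested genes. None of the 7 was lower (median log2 fold change 0.45 and 0.36). Zeb2 rose in both (1.35, SE 0.19, and 1.62, SE 0.19). Zeb1 rose by 0.45 (SE 0.14, adjusted p = 0.0161) in Dnmt1 KO and by 1.33 (SE 0.14, adjusted p = 4.62e-07) in DKO, and was the higher in the direct comparison of the knockouts (0.88, SE 0.16, adjusted p = 0.00052). Twist1 rose by 0.62 (SE 0.15) and 0.36 (SE 0.15). Without WT number 4, 4 of these factors were higher and 1 lower in Dnmt1 KO, and 4 higher in DKO. Snai1 and Snai2 reached no more than 24 and 25 reads in any library and were not tested.

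Mesenchymal surface and adhesion genes were mostly higher, 15 of 21 (71.4%) in Dnmt1 KO and 17 (81%) in DKO, beside 23.5% and 31.9% of all tested genes. Of the 21, 1 and 2 were lower (median 0.75 and 0.98). Pdgfra, a receptor of mesenchymal precursors, rose by 1.78 (SE 0.25) in Dnmt1 KO and the hyaluronan receptor Cd44 by 1.10 (SE 0.12), whereas the gelatinase Mmp2 was lower in both knockouts (-0.79, SE 0.13, and -1.19, SE 0.13). Matrix genes other than collagens were higher in 16 of 25 (64%) and 20 of 25 (80%) cases and lower in none (median 0.63 and 0.72). The tissue inhibitor of metalloproteinases Timp3 (1.27, SE 0.15, in Dnmt1 KO) and the proteoglycan Vcan (1.46, SE 0.14, in DKO) were among them, and the fibrillin Fbn2 rose most (2.11, SE 0.48, and 2.56, SE 0.48) from 4 to 59 reads in WT. Of 14 genes of the TGF-beta pathway, which induces EMT, 7 (50%) were higher in Dnmt1 KO and none lower. In DKO 10 (71.4%) were higher and 1 lower (median 0.35 in Dnmt1 KO and 0.67 in DKO). The receptor Tgfbr2 rose in both (1.00, SE 0.13, and 1.53, SE 0.13). The ligand Tgfb1 did not pass in Dnmt1 KO (0.63, SE 0.33, adjusted p = 0.140) and was higher in DKO (0.81, SE 0.33, adjusted p = 0.0441). The signal transducer Smad3 did likewise (0.05, SE 0.15, adjusted p = 0.817, and 0.53, SE 0.15, adjusted p = 0.00557). Without WT number 4, 6 genes of this pathway were higher and 1 lower in Dnmt1 KO, and 8 higher and 2 lower in DKO.

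**Figure D4:**
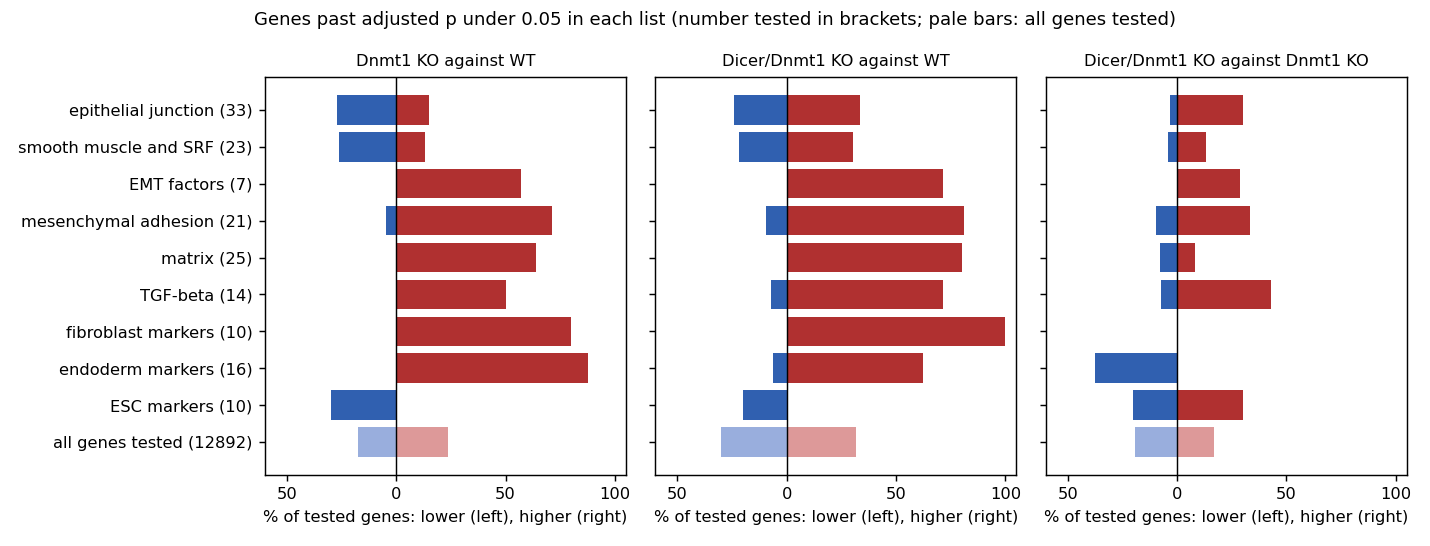
Percentage of the tested genes of each list that were higher (right, red) or lower (left, blue) at an adjusted p under 0.05 in each of the 3 comparisons, with the number tested in brackets and all 12892 tested genes as pale bars. Matrix, mesenchymal adhesion, fibroblast and endoderm lists lie mostly to the right in both comparisons with WT, while the epithelial junction and smooth muscle lists hold genes in both directions.

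Several markers of other cell types were also higher than in WT. Of 14 feeder fibroblast markers 10 were tested. Of these, 8 (80%) were higher in Dnmt1 KO and 10 (100%) in DKO (median 0.96 and 1.18), beside 23.5% and 31.9% of all tested genes. The summed level of the 14 markers was 52.5 to 87.4 RPM in WT, 141 to 158 in Dnmt1 KO and 121 to 192 in DKO. Col1a1 rose by 1.40 (SE 0.30) and 1.72 (SE 0.30). The untested markers of this list, Dcn, Lum, Twist2 and Fap, stayed at 28 reads or fewer in every library. Thy1, which is not in this list, did not pass against WT. Of 16 endoderm markers, 14 (87.5%) were higher in Dnmt1 KO and none lower, and 10 (62.5%) were higher and 1 lower in DKO. Without WT number 4, 15 were higher in Dnmt1 KO and 9 in DKO, and none lower. Over all libraries, their sums were 347 to 541 RPM in WT, 667 to 939 in Dnmt1 KO and 666 to 836 in DKO. The endoderm factor Foxa2 rose most (2.88, SE 0.42, and 2.66, SE 0.42), from 2 to 18 reads in WT to 33 to 51 in Dnmt1 KO. Between the knockouts, 6 of the 16 endoderm markers (37.5%) were lower in DKO, 10 did not pass and none was higher, beside 19.4% of all tested genes lower. Among the 6 were the endoderm factor Sox7 (-1.88, SE 0.33), which in DKO did not pass against WT (0.10, SE 0.29, adjusted p = 0.785), and Amn (-1.67, SE 0.40). Without WT number 4, 7 of the 16 were lower in DKO than in Dnmt1 KO and 1 was higher. Sparc and Vim are known to be abundant in parietal endoderm, and Vim, Fn1, Lox, Sparc and Acta2 in fibroblasts, which also carry Thy1. Of these genes, Fn1 and Thy1 did not pass against WT. Tagln, also among the 10 genes, was lower in both knockouts. What these cell types contributed to the levels of the 10 genes was not tested.

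The remaining marker lists were short. Of 3 tested mesoderm markers 2 were higher in each knockout, and of 4 tested trophoblast markers 3 were higher in each, with Hand1 counted in both lists (3.19, SE 0.32, and 3.06, SE 0.32). Other tested genes were also counted more than once. Pdgfra is in the mesenchymal, fibroblast and mesoderm lists, and Pdgfrb and S100a4 in the mesenchymal and fibroblast lists. The fibroblast list shares Prrx1 with the EMT list and Postn with the matrix list. Tgfbr2 is in the mesenchymal and TGF-beta lists, and Krt7 in the epithelial and trophoblast lists. The list counts are thus not independent. Of 4 tested neural markers 1 was lower in Dnmt1 KO, and 2 were higher and 1 lower in DKO. Over all tested genes, 23.5% were higher and 17.5% lower in Dnmt1 KO, and 31.9% and 30.1% in DKO. Of 10 ESC markers none was higher, 3 were lower in Dnmt1 KO and 2 in DKO (median -0.27 and -0.14). Sox2 was lower in Dnmt1 KO (-0.67, SE 0.11, adjusted p = 0.00018) and higher again in DKO relative to it (0.57, SE 0.13, adjusted p = 0.003). Nanog was likewise lower in Dnmt1 KO (-0.64, SE 0.11, adjusted p = 0.00023) and higher in DKO than in Dnmt1 KO (0.73, SE 0.13, adjusted p = 0.00037).

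MicroRNAs depend on DICER, and 3 whose families are known for ESC identity, for repression of Zeb factors and for repression of matrix genes are shown with their seed (bases 2 to 8) in capitals, from RefSeq.
mmu-miR-294-3p: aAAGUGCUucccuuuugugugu
mmu-miR-200b-3p: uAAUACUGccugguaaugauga
mmu-miR-29b-3p: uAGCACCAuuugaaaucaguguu
In the part of the longest transcript behind the coding sequence, the complement of the miR-294 seed was found 1 time in Vim and 3 times in Tgfbr2, that of miR-200b 1 time in Fn1, 5 times in Zeb1, 5 times in Zeb2 and 1 time in Snai1, and that of miR-29b 3 times in Lox. None of the 3 complements was found in Cdh1, Epcam, Cdh2, Acta2, Tagln, Sparc or Thy1. Such a match was held by 12.7%, 11.8% and 11.5% of 19895 coding transcripts. With loss of Dicer on top of Dnmt1, the log2 fold change was 0.88 (SE 0.16) for Zeb1 and 0.27 (SE 0.22, adjusted p = 0.356) for Zeb2, both with 5 matches. It was 0.53 (SE 0.15, adjusted p = 0.0129) for Tgfbr2 and -0.15 (SE 0.17) for Lox, both with 3. Of the 6 tested genes with a match, Zeb1 and Tgfbr2 passed, and Zeb2, Lox, Vim and Fn1 did not. Both that passed were higher. Of all tested genes, 36.3% were called in this comparison and 16.9% were higher. The 6 genes were picked by role and are few, and a difference from these shares was not tested. Only the 10 genes and Zeb1, Zeb2, Snai1, Twist1 and Tgfbr2, picked by role, were searched. The microRNAs themselves were not measured here, and a match is a description of letters and not a site.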

How the data were processed

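RNA abundance was measured by total RNA sequencing in 8 WT, 4 Dnmt1 KO and 4 Dicer/Dnmt1 double KO (DKO) libraries. Per the study's methods and its processing notes, the authors trimmed reads with Trim Galore 0.3.5, aligned them with TopHat2 2.0.11 to NCBIM37, kept mapping qualities of at least 20 and quantified genes in SeqMonk. The deposited unit is log2 RPM per gene and library, scaled to the library's reads. A gene without reads is written as 0.9 read. The recovered totals of 31.5 to 52.5 M reads limit the precision, and floors cover counting error only. Another 35 value columns were not used.

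limma 3.58.1 in R 4.3.3 fitted group means to the log2 values of 16 libraries with an intensity trend, over genes above 1 RPM in at least 4 libraries. Benjamini-Hochberg adjusted p-values under 0.05 were counted. The fit was checked on simulated data in which all libraries were drawn independently. That check could not cover spread shared between the A and B libraries of a number. The 10 genes, the gene lists and the rules were chosen with earlier results of these data known. Named are the 10 genes and some genes of each list. The latter are among the largest rises and falls past the threshold, were picked by role, or are shared between lists. Not all of the largest changes were named. Also named are the genes most correlated with most of the 10. Gene models and sequences came from GENCODE M1 on NCBIM37, and microRNAs from RefSeq. Alternatives covered normalization, filter, pseudocount, replicate unit, choice of WT libraries, a replicate block and leaving out each library. Leaving out WT number 4, and blocks within the knockouts alone, were chosen after seeing the data.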

Additional observations from a re-analysis of the deposited data

How the results depend on the processing

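Vim, Acta2, Lox and Sparc kept their call and direction against WT under every alternative run, in both knockouts. Tagln did so in DKO. Over the 10 genes, 734 of 790 values under alternatives stayed on their side of the threshold and in their direction. Of those that did not, 24 changed sign, each in a comparison that the gene had not passed, and the cause was not tested.

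Between the knockouts the count of 10 genes called rose from 0 to 1 (Fn1) with a replicate block, quantile normalization, WT numbers 1 and 2 alone, WT numbers 3 and 4 alone, both libraries of WT number 4 left out, or the 2 knockout groups alone with or without the block. The labels do not say that a number marks a shared batch. Deviations of same-numbered libraries correlated at -0.02 between Dnmt1 KO and WT, 0.42 between DKO and WT and -0.22 between the knockouts, and the number was not taken as a pairing. With the replicate block 6541, 7828 and 6690 genes were called in the 3 comparisons, against 5289, 7985 and 4682 without it. With A and B averaged, 2288, 5134 and 1225 genes were called, and 5, 6 and 0 of the 10. With the numbers crossed in a fit of the knockouts alone, 2 of the 10 genes and 7247 of all genes were called. With the block, Fn1 was lower in Dnmt1 KO (-0.66, adjusted p = 0.0086) and Thy1 higher in DKO (0.44, adjusted p = 0.0401).

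Cdh1 turned to -0.21 in Dnmt1 KO and -0.10 in DKO with the block and with WT numbers 1 and 2 alone, and to -0.10 in Dnmt1 KO without WT number 4. Epcam in Dnmt1 KO turned to 0.077 in the first 2 of these, 0.010 without WT number 4 and 0.049 with letter A alone, and Fn1 to 0.36 with WT numbers 3 and 4 alone. Between the knockouts, removal of a trend with transcript length gave -0.0020 for Cdh1, -0.030 for Cdh2 and 0.016 for Tagln, letter A alone gave -0.031 for Cdh2, and letter B alone -0.021 for Acta2. Leaving out 1 library at a time gave -0.089 to 0.040 for Epcam in Dnmt1 KO and, between the knockouts, -0.0093 to 0.25 for Cdh2, -0.0040 to 0.13 for Vim, -0.10 to 0.20 for Acta2 and -0.011 to 0.38 for Thy1. Without WT 1A, Epcam (-0.20, adjusted p = 0.0354) and Fn1 (0.72, adjusted p = 0.0357) passed in DKO. Fn1 in DKO also passed after quantile normalization (0.88, adjusted p = 0.0300) and against WT numbers 3 and 4 alone (1.10, adjusted p = 0.00179).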
